A study of Drosophila melanogaster with 2 samples.

Results

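The KLF and Sp zinc finger genes are a family of transcription factor genes, and the 7 described here are cbt, luna, dar1, btd, Sp1, Spps and hkb, of 13968 protein-coding genes in the annotation. They were chosen by name, with earlier results of these data in view, and partly selected on signal, since cbt lies beside the strongest promoter-distal peak. For each gene, every peak summit was taken that lay in its span or within 5 kb of it. This gave 83 summits in the pooled list of 30000, of which 11 were among the 4537 kept at the authors' threshold on the irreproducible discovery rate (IDR), called thresholded summits here. The peak lists come from ChIP-seq, the sequencing of DNA recovered with an immunoprecipitated chromatin protein, in whole embryos of Drosophila melanogaster aged 0 to 24 h, with the sexes mixed. The single group was a transgenic line, strain chn-GFP, that stably expresses charlatan (the product of chn, a zinc finger transcription factor of peripheral nervous system development) with GFP at its C-terminal end, and an anti-GFP antibody was used. Its 2 samples were biological replicates 1 and 2. What drives the fusion, and whether untagged chn remains, is not given in the sources used here. With 1 group there was no contrast between conditions, so no test was made and the values below are descriptions. Each list gives a signal value per peak, which is the authors' own and is not stated to be normalised to depth, so ranks by signal within a list (1 is the strongest) are used throughout. The lists hold no read counts, so depth is unknown. In whole embryos, binding in few cells and weak binding in many cannot be told apart, and a gene with no listed peak cannot be told from one bound below detection.

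KLF and Sp factors carry a run of C2H2 zinc fingers near the C-terminal end, which bind GC-rich boxes and the related CACCC box in promoters and enhancers. In the fly, cbt encodes cabut, the counterpart of vertebrate TIEG factors, which acts in dorsal closure and in the transcriptional response to dietary sugar. The gene luna encodes the counterpart of vertebrate KLF6 and KLF7, and dar1 encodes a KLF needed for the growth of dendrites. The genes btd (buttonhead, a head gap gene) and Sp1 are neighbours on X that act in leg development. Spps encodes an Sp factor that binds Polycomb response elements, and hkb (huckebein) is a terminal gap gene that sets the limits of the gut primordia.

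The windows that carry these results are the 201 bases around the strongest thresholded summit of cbt, Spps and dar1. A further window, at the summit in the cbt promoter, is shown because it is the only thresholded summit of the family within 500 bp of a member's own start. All are the plus strand of build dm6 (Release 6), 5′ to 3′, and capitals mark matches to the short sequences described further on. They lie at chr2L:480996-481196 (intron of ush), chr2L:479976-480176 (upstream of cbt), chr3R:24221988-24222188 (intron of cav, beside the twin start) and chr3L:3638698-3638898 (first intron of dar1), and none holds annotated UTR or coding sequence.
cbt distal: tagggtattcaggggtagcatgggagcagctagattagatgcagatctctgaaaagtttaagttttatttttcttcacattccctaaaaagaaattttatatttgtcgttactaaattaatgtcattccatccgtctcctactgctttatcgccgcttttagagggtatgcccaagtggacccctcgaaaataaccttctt
cbt promoter: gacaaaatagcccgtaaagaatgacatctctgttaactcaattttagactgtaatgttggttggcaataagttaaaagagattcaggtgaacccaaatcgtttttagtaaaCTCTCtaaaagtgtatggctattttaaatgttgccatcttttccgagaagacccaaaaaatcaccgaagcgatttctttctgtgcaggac
Spps, twin side: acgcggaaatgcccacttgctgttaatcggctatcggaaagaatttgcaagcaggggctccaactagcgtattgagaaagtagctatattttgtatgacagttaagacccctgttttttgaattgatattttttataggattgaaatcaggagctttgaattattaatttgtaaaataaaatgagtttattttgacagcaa
dar1 intron: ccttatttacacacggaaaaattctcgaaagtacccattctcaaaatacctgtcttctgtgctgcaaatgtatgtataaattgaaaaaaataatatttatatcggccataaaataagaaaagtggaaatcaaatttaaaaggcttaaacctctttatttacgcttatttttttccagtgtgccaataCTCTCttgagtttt

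Binding was uneven across the family. A thresholded summit lay in the span or within 5 kb of 4 of the 7 genes, against 49.2% of all protein-coding genes, so the count of genes was close to the background. The summits were 5 at cbt, 3 at luna, 2 at Spps and 1 at dar1, with 0 at btd, Sp1 and hkb. Of the 83 pooled summits, 13.3% were thresholded, against 15.1% of the whole pooled list. Only cbt had a thresholded summit within 1000 bp of its own start, which 24.1% of all protein-coding genes had. For 6 of the 11 thresholded summits the nearest protein-coding start was that of the member itself, 4 of them at cbt.

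**Figure D1:**
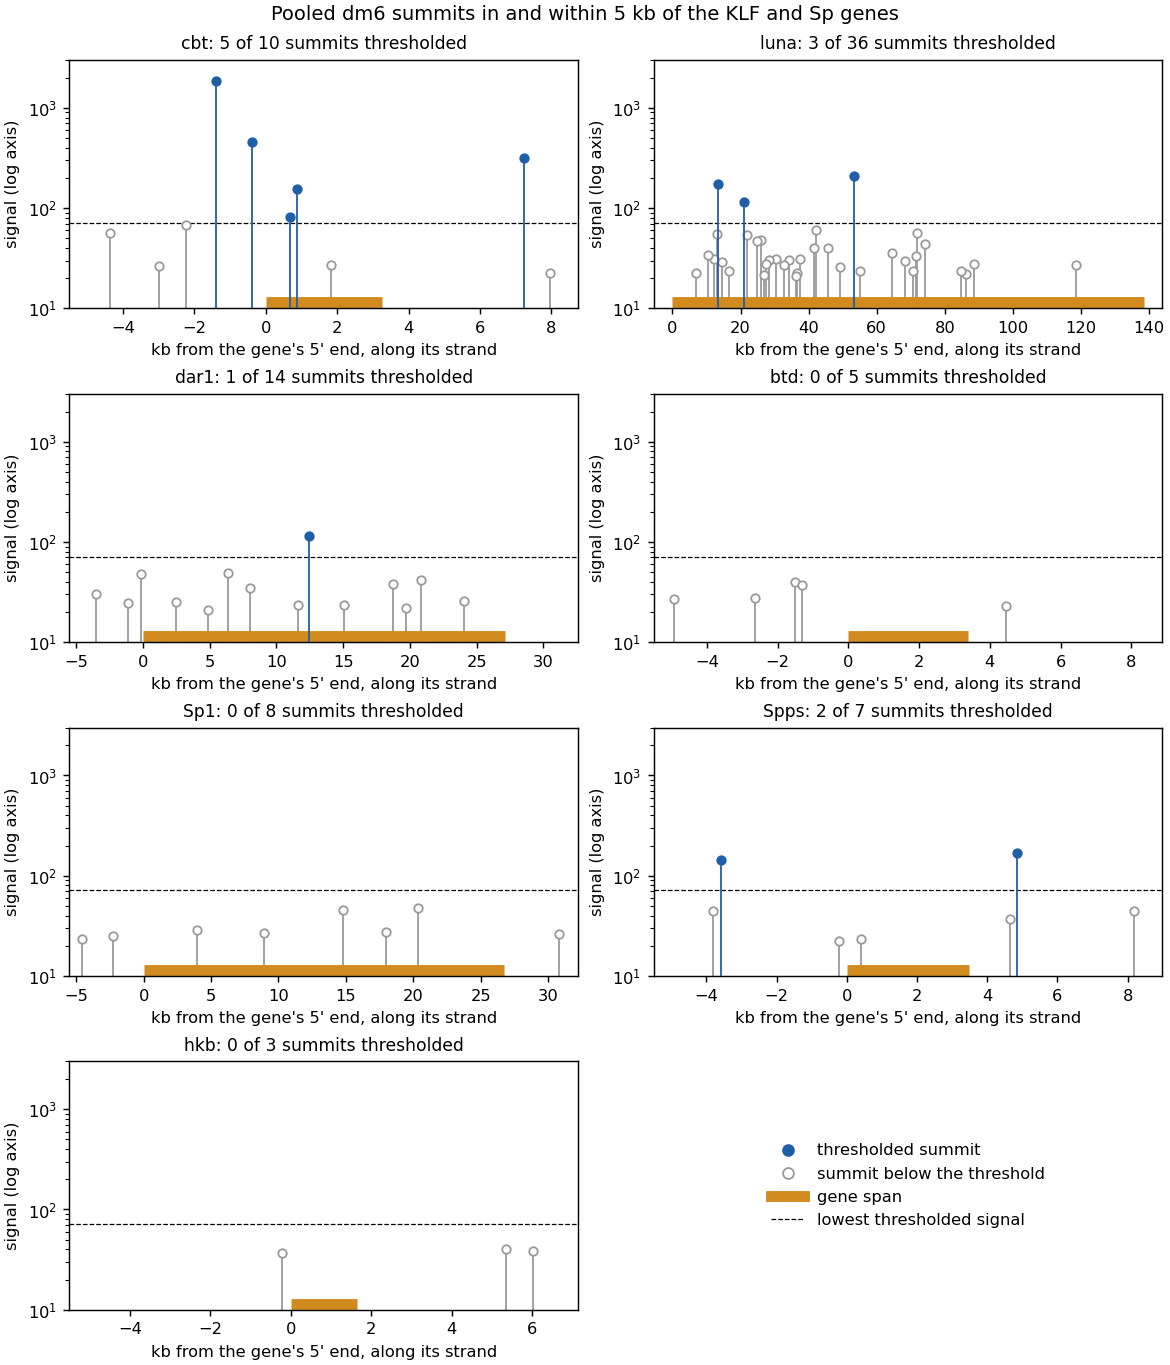
Signal of each pooled summit (log axis) against its distance in kb from the gene's 5′ end, along the gene's strand, for the 7 genes. Filled points are thresholded summits, open points lie below the threshold, the bar is the gene span and the dashed line is the lowest thresholded signal. The cbt summit 1408 bp upstream, at 1865, stands above every other summit of the family, and btd, Sp1 and hkb have open points only.

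The gene cbt (FBgn0043364, chr2L:476446-479688, minus strand) had the strongest summits of the family within 5 kb of it. Those at ranks 2, 124 and 292 all lay outside its span. Inside the span of cbt the best rank was 1350, weaker than the 710 reached inside luna. The strongest peak near cbt (2L, 480850 to 481328) had its summit at 481096, 1408 bp upstream of the single annotated start of cbt. The signal was 1865 in the pooled list, which placed it at rank 2 of 30000. In replicate 1 the overlapping peak had a signal of 1103 and was rank 1, and in replicate 2 it had a signal of 758 and was rank 2. The replicate summits lay 3 bp apart. This peak is the one by which the family was chosen, so its rank is a description.

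The second strongest cbt peak (2L, 479921 to 480209) lay at the promoter, with its summit 388 bp upstream of the start and 1020 bp from the first. Its pooled signal was 455 (rank 124). The overlapping peak was at rank 116 with a signal of 269 in replicate 1 and at rank 118 with a signal of 191 in replicate 2. Both replicates placed it at nearly the same rank.

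A pair of overlapping peaks lay inside cbt, with summits at 478817 and 479023, which are 206 bp apart. Their pooled signals were 155 (rank 1350) and 81.0 (rank 3829), the latter the weakest thresholded peak of the family. Both are in the 5′ UTR of 1 of the 3 cbt transcripts and in the first intron of the other 2. For the summit at 478817 the overlapping peaks were at rank 1135 in replicate 1 and 1274 in replicate 2. For the summit at 479023 the replicate peaks nearest to it were at rank 3324 in replicate 1 and 17579 in replicate 2, so by its nearest replicate summit the weaker of the pair was among the 4537 strongest in replicate 1 alone. Its interval also overlaps the stronger peak of the pair in each replicate, at ranks 1135 and 1274, and by overlap it counts as supported in both.

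The fifth cbt summit, at 472470 (2L, 472378 to 472571), lay beyond the 3′ end of cbt between 2 other genes. It was 270 bp from the start of CG4297 and 543 bp from that of MED15, which encodes a Mediator subunit, and 7218 bp from the cbt start. Its pooled signal was 315 (rank 292), with rank 301 in replicate 1 and 311 in replicate 2.

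The cbt locus is nested in another gene. The gene ush (FBgn0003963, chr2L:476220-540560, plus strand), which encodes U-shaped, a cofactor of GATA factors, spans the whole of cbt. The summits at 478817, 479023, 480076 and 481096 all lie in the first intron of both ush transcripts that reach them, an intron of 49060 bp in one and 13185 bp in the other. Of the 13 thresholded summits in the span of ush, these 4 were nearest to the cbt start, and the other 9 were nearest to a start of ush, with ranks from 522 to 4368. The summit of rank 2 lay 4876 bp from the 5′ end of ush. The peak lists cannot assign any of these 4 summits, upstream of cbt or inside it, to either gene.

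Set against genes of like length, cbt had many thresholded summits in its span or within 5 kb, but only 2 lay in the span. Its 5 thresholded summits were matched or exceeded by 54 of the 11983 protein-coding genes with a span under 10 kb (0.451%), a class with a median of 0. Since cbt was chosen for its peak, this count is a description and not a test. The class also does not match cbt for its place inside ush, a gene of 64341 bp. Of the 5 summits, 4 lie in the first intron of ush, and the one at 472470 is nearest to the start of CG4297. The share therefore cannot be read as a property of cbt alone. Of all protein-coding genes, 1.33% had 5 or more. Of those genes under 10 kb, 46.7% had at least 1, as Spps did and btd and hkb did not. Without its flank, cbt kept 2 thresholded summits, and its strongest peak there was at rank 1350.

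**Figure D2:**
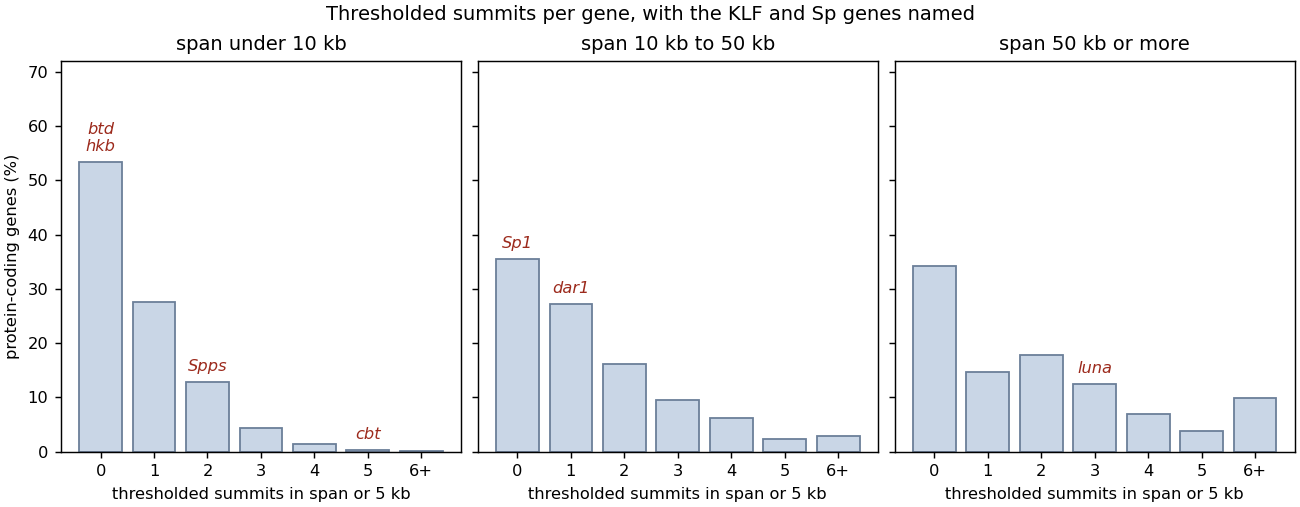
Share of protein-coding genes (%) by the number of thresholded summits in the span or within 5 kb, in 3 classes of gene span, with the KLF and Sp genes named above the bar they belong to. The gene cbt sits in the bar of 5 summits among genes under 10 kb, while btd, hkb and Sp1 sit at 0 and luna at 3 among genes of 50 kb or more.

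Of the summits near cbt that did not pass, the strongest lay at 481932, 2244 bp upstream, with a signal of 68.6 (rank 4822) and a −log10 q of 2.94. It was the nearest to the threshold of the 72 summits of the family below it. The lowest thresholded signal in the whole list was 71.4. It ranked 5428 in replicate 1 and 5883 in replicate 2. A next summit at 484052, 4364 bp upstream, had a signal of 56.0 (rank 6373). At the edge of the 5 kb flank, a thresholded summit at 470802 in an intron of CG4297 lay 5644 bp from cbt and was not counted.

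The gene luna (FBgn0040765, chr2R:10977956-11116378, minus strand, 138423 bp) held 3 thresholded summits, all in introns and none near a start. The strongest was at 11063086 (2R, 11063000 to 11063160), 43730 bp from the nearest luna start, with a signal of 211 (rank 710). It ranked 618 in replicate 1 and 1033 in replicate 2, with the summits 1 bp apart. The next was at 11103005, 3811 bp from the start, with a signal of 173 (rank 1104). It was at rank 1051 in replicate 1 and 1318 in replicate 2. The third, at 11095335, had a signal of 116 (rank 2185) and was at rank 1892 in replicate 1 and 2785 in replicate 2. All 3 were ranked higher in replicate 1 than in replicate 2. The same held for the overlapping peaks of every thresholded summit of cbt and Spps, and not for that of dar1.

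The summits at 11063086 and 11095335 are in the second intron of all 3 luna transcripts, which is 108407 bp long, and the summit at 11103005 is in the first. The second intron held 29 of the 36 pooled summits of luna. They were concentrated towards the 5′ end of the gene, where the 69.2 kb nearest the 5′ end held 28 pooled summits and all 3 thresholded ones, while the 69.2 kb nearest the 3′ end held 8. Annotated transposable elements covered 21.0% of the 3′ stretch and none of the 5′ stretch, and their part in this difference was not tested. The small genes CG43188 and lncRNA:CR46409 lie inside luna, and for 2 of the 3 thresholded summits the nearest protein-coding start was that of CG43188, at 22500 and 9749 bp.

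For its length luna was not set apart. Of the 313 protein-coding genes with a span of 50 kb or more, 65.8% had a thresholded summit and 33.2% had 3 or more, with a median of 2. Its 36 pooled summits compare with a median of 15, and 14.4% of these genes had as many.

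The gene dar1 (FBgn0263239, chr3L:3626352-3653442, plus strand) had 1 thresholded summit among 14. It lay at 3638798 (3L, 3638598 to 3638997), 12446 bp from the start in the first intron, which is 17497 bp long. Its pooled signal was 115 (rank 2198). It ranked 2452 in replicate 1, with a signal of 62.4, and 1910 in replicate 2, with a signal of 55.4. The replicate summits were 91 bp apart, the widest gap among the thresholded summits of the family, where the median was 20.0 bp against 25.0 bp over all thresholded summits. At the dar1 promoter, a summit 113 bp upstream of the start had a signal of 47.6 (rank 8001), ranked 5338 in replicate 1 and overlapped no peak in the replicate 2 list. Among protein-coding genes with a span of 10 kb to 50 kb, 64.4% had at least 1 thresholded summit.

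The gene Spps (FBgn0039169, chr3R:24223445-24226934, minus strand) had 2 thresholded summits, and both lay at promoters of other genes. The first, at 24222088 (3R, 24221888 to 24222287), was 4846 bp from the Spps start. It was 123 bp from the start of twin, which encodes a deadenylase, and 154 bp from a start of cav, which encodes a telomere capping protein. Its pooled signal was 167 (rank 1180), with rank 1182 in replicate 1 and 1343 in replicate 2. The second, at 24230522 (3R, 24230322 to 24230721), was 3588 bp upstream of Spps and 40 bp from the start of mask, which encodes an ankyrin repeat protein. It was also 487 bp from the start of Spase22-23, which encodes a signal peptidase subunit. Its pooled signal was 142 (rank 1586), with rank 1440 in replicate 1 and 1755 in replicate 2. At the Spps start itself the pooled list held weak summits only, at 24226522 (rank 24332, in neither replicate list) and at 24227170 (rank 25972, in the replicate 2 list alone).

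The gap genes btd and hkb and the gene Sp1 had pooled summits but none that passed. At btd (FBgn0000233, chrX:9694186-9697558, plus strand) there were 5, all outside the gene. The strongest, 1513 bp upstream, had a signal of 40.3 (rank 10157) and ranked 6974 in replicate 1 and 16653 in replicate 2. The nearest thresholded summit was 6269 bp from btd, at 9687917, and was 851 bp from a start of nej, which encodes the histone acetyltransferase CBP.

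At Sp1 (FBgn0020378, chrX:9729648-9756369, plus strand) there were 8 summits, 5 of them in introns of the gene. The strongest, 20367 bp into the gene, had a signal of 47.7 (rank 7982) and ranked 10283 in replicate 1 and 8192 in replicate 2. The nearest thresholded summit was 22319 bp away, at the promoter of CG1354. Sp1 lay farthest of the family from a thresholded summit.

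At hkb (FBgn0261434, chr3R:4345015-4346646, minus strand) there were 3 summits. One lay 231 bp upstream of the start, with a signal of 36.7 (rank 11751), and its rank was 11967 in the list of replicate 1 and 11486 in that of replicate 2. The strongest, 5343 bp from the start beyond the 3′ end, had a signal of 40.2 (rank 10174) and was in the replicate 1 list alone. The nearest thresholded summit was 10811 bp from the gene, at the promoter of CG9776.

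All 11 thresholded summits of the family overlapped a peak among the 4537 strongest of each replicate, which held for 78.5% of all thresholded summits. The authors built their thresholded set from the same lists, so the count is no independent check. The family was also partly chosen on signal, and 5 of the 11 summits are at cbt. This count and the next are therefore descriptions. With the stricter demand that the summits lie within 100 bp, 10 of the 11 remained, against 72.4% of all thresholded summits, and the exception was the cbt summit at 479023. Of the 72 summits below the threshold, 34 (47.2%) overlapped a peak in both replicate lists, 35 (48.6%) in 1 and 3 in none. Over all 25463 pooled summits below the threshold these shares were 52.8%, 42.2% and 4.94%, so the weak summits of the family were found about as often as others. Their ranks ran from 4822 to 29167 with a median of 16959.

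**Figure D3:**
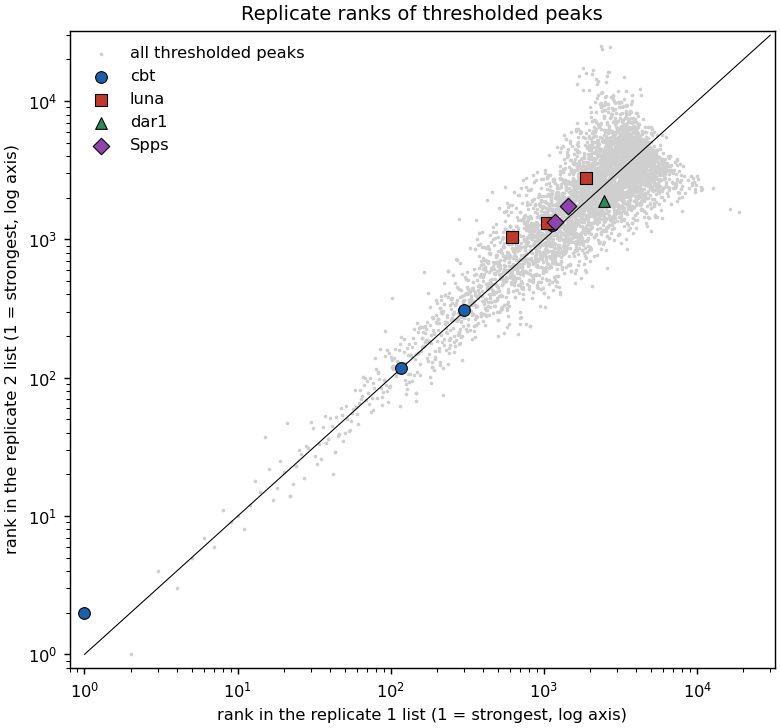
Rank of each thresholded peak in the replicate 1 list against its rank in the replicate 2 list (both log axes, 1 is the strongest), with all thresholded peaks in grey, the peaks of cbt, luna, dar1 and Spps in colour and equal ranks on the line. Each rank is that of the strongest overlapping replicate peak, so the cbt summits at 478817 and 479023 are drawn at the same point. The strongest cbt peak is at ranks 1 and 2. The peaks of cbt, luna and Spps lie above the line, at higher rank numbers in replicate 2, and the dar1 peak lies below it.

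Of the thresholded summits of the family, 4 were in promoters, 5 in introns and 2, the overlapping pair inside cbt, in annotated 5′ UTR. Over all thresholded summits 51.7% were in promoters, 31.0% in introns and 0.661% in 5′ UTR. Of the 4 promoters, 1 was that of cbt, and the others were those of CG4297, twin and mask. The median signal of the 11 was 167, against 113 over all thresholded summits. The 11 include those of cbt, which was chosen for its peak, so this median is a description. The windows had a median GC content of 37.3%, against 37.8% for all thresholded and 45.3% for all other pooled summits.

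Short sequences were looked for on both strands within 100 bp of each summit. The GAGA sequence GAGAG was in 5 of the 11 windows (45.5%), at cbt, luna and dar1, against 27.0% of all thresholded windows and 25.6% of the other pooled windows. In the cbt promoter window printed above its reverse complement starts 11 bp to the right of the summit, and in the dar1 window 87 bp to the right. The KLF-type box CACCC was in 3 of the 11, 2 at cbt and 1 at the mask promoter, against 21.2% of all thresholded windows and 28.1% of the others. The GC box GGGCGG was in 0 of the 11 and in 5.91% of all thresholded windows. The core of the DNA replication-related element, ATCGATA, was in 1, at the mask promoter, and in 9.83% of all thresholded windows.

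The N-box CACNAG was in 2 of the 11 windows, the overlapping pair inside cbt, against 22.6% of all thresholded windows. The E-box CAGCTG, the 7-mer ACAGTGG and CAGCACC (part of the vertebrate REST element) were in none, where 11.3%, 9.30% and 2.20% of all thresholded windows held them. None of the 8 sequences was in 3 of the windows, which were those of the strongest summits of cbt, luna and Spps. Of all thresholded windows 30.8% held none either. The absence says only that these letters are not in these windows.

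Other genes of the family and of its pathways were described from lists that were written with earlier results known. Of 3 other KLF and Sp genes, 1 had a thresholded summit in its span or within 5 kb, against the background of 49.2%. It was CG3065, where the summit (rank 1415) was 68 bp from the start of another gene, or. CG42741 had 11 pooled summits and none that passed, and Klf15 had no pooled summit.

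Of 4 genes listed beside cbt for sugar sensing, 3 had a thresholded summit, against 49.2% of all protein-coding genes. So short a list is not set apart by this count. Sin3A, which encodes a corepressor scaffold, had 5, the strongest at rank 459 in a promoter. The gene bigmax, which encodes the partner of the sugar sensor Mondo, had 3 (best rank 932, 95 bp from its start). The gene sug had 1, at rank 3719, nearer to the start of CG17019. Mondo had none, and its strongest pooled summit was at rank 5303, 167 bp from the start of crc.

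Of 12 genes of the head gap and terminal network in which btd and hkb act, 6 had a thresholded summit, again near the background. They were oc, kni, slp1, cnc, cic and gro, and the strongest was that of the corepressor gene gro (signal 486, rank 98). The gap genes tll, ems, gt, Kr and hb and the receptor gene tor had none, and Kr came nearest to the threshold, with a summit of rank 4586, 23 bp from its start. Of 9 genes whose products bind or work at Polycomb response elements, as Spps does, 7 had one, against the same 49.2% of all protein-coding genes. Most genes of this list have a span under 10 kb, where the share was 46.7%. It was 64.4% for spans of 10 kb to 50 kb and 65.8% for 50 kb or more. No test was made of the difference from these shares. The highest ranks were those of Trl (43, with 6 thresholded summits), phol (63) and Dsp1 (217). Each of these strongest summits lay nearer to a start of another gene. These were CG42507 for Trl (1518 bp), CG3552 for phol (108 bp) and CG9921 for Dsp1 (573 bp). The gene z had none, and pho, on chromosome 4, had no pooled summit.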

How the data were processed

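Per the deposited inventory files, the authors called peaks in each replicate and in pooled reads of both, using 1 control library that is not analysed here, and derived their thresholded set from the 3 resulting lists. Neither aligner nor peak caller is named in those files or in the labels. Each deposited dm6 list gives a signal value, a −log10 q-value (deposited values saturate at 3.89) and a summit offset per peak. Chromatin was sheared to 200 to 800 bp, per the labels. The dm3 lists were not used.

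Summits were placed on Ensembl release 115 gene models (BDGP6.54), and sequences were read from the RefSeq copy of Release 6. Chromosome lengths were checked against peak ends. A promoter is within 500 bp of a protein-coding start. Replicate support is any overlap with a peak among the 4537 strongest of that list. The members, gene lists and short sequences were chosen with earlier results of these data known. Genes were named by rule: the 7 members, the gene of the nearest start to each thresholded summit, and the list members. Other genes that span a described summit or have a start near it were named as well. One list entry, CG9895, is an older name of CG42741, and Psq is psq. No test was made, and p-values are not given. Counting was tested on simulated data. Python 3.11.15, numpy 2.4.6 and pandas 2.3.3 were used.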

Additional observations from a re-analysis of the deposited data

How the results depend on the processing

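The number of KLF and Sp genes with a thresholded summit was 4 and ran from 3 to 5 over other flanks, single replicates and the own-start rule, and was 2 (cbt and luna) with the 1000 strongest peaks. The 11 summits became 4 with the 1000 strongest peaks, 6 without flank, 20 with a flank of 10 kb, and 6 when a summit counted only for the gene of the nearest start, an alternative chosen after seeing the data. For a single replicate, the 4537 strongest peaks of its list were counted in place of thresholded summits. This gave 11 in replicate 2, with cbt at 4 and Spps at 3, and 12 in replicate 1, with luna at 4. Summits supported in both replicates were 4 of 4 with the 1000 strongest peaks, 6 of 6 without flank and 19 of 20 with 10 kb. Without flank the best rank was 1350 at cbt and 24332 at Spps, and with 10 kb it was 543 at dar1 and 750 at btd, where the added summits lie nearer to other genes. In single replicates the best rank ran from 1 to 2 at cbt, 618 to 1033 at luna, 1910 to 2452 at dar1, 6974 to 9526 at btd, 8192 to 9505 at Sp1, 1182 to 1343 at Spps and 7367 to 11486 at hkb. The single gene with a thresholded summit near its start, cbt, was the only one at 500 and 2000 bp, in each replicate and among the 1000 strongest peaks. No paired analysis was possible because there is 1 group. Read depth is unknown, so weak sites may be missing.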
